A study of Xenopus tropicalis with 5 samples.

Results

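Densely methylated genes are described here as those with 10 or more 5-methylcytosine (m5C) sites in the list made from 100 ng of RNA of Xenopus tropicalis stage 0 embryos. The members were chosen by 2 measured values of that list, the number of sites of the gene and a methylation level below 80% at the site, and the genes kmt2b, kmt2d, polq, col4a5, llgl1 and ncor1, with 139 sites, were left out by the rule. This gave 1800 of the 18524 sites of the list (9.72%), in 156 of its 6458 genes (2.42%). The member genes held 1891 listed sites, of which 91 had a level of 80% or more and were not members. Site numbers and levels at 100 ng are therefore a description, and only the lists of lower input, which the rule did not use, can show whether the same sites and levels were measured again.

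The material was polyadenylated RNA of early embryos at stage 0, about 200 embryos being pooled for RNA isolation, and the labels name no strain, genotype or treatment. RNA bisulfite sequencing (RNA BS-seq) was run on 5 libraries, labelled 100 ng (2 libraries), 5 ng, 10 ng and 20 ng (1 library each). Bisulfite converts unmethylated cytosine, which is then read as T, and leaves m5C as C. The methylation level is the percentage of reads at a position in which the C was kept. The authors deposited 1 list for each input, with the 2 libraries of 100 ng combined, so there was no spread between replicates and the tests concern the reads of these lists, not inputs in general. The stated protocol, which starts from at least 100 ng, does not describe the lower labelled inputs. The paper presents a comparison of RNA inputs from such embryos, made to check how well methylation levels are reproduced with little RNA.

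The paper attributes m5C in messenger RNA to the methyltransferases NSUN2 and NSUN6. Both recognise a short sequence motif together with the structure of the RNA around the cytosine. An embryo at stage 0 does not yet transcribe its own genome, so its messenger RNA was made and stored by the mother during oogenesis. Sites in such messages are read 1 cytosine at a time, and each site has a level of its own.

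No list held a site with fewer than 20 reads or with a level under 10%. Beside the 18524 sites at 100 ng, 13153 sites were listed for 5 ng, 12341 for 10 ng and 13178 for 20 ng. The median coverage of a listed member site was 271.5 reads at 100 ng and 97, 96 and 106.5 reads at 5, 10 and 20 ng. Total reads per library were not used, since the lists give reads at called sites only. The site just inside the level limit was in epn2, at 79.9% (183 of 229 reads), and the one just outside was in sgms1, at 80.2% (307 of 383 reads). In the number of sites, 45 member genes had exactly 10, and 78 genes with 9 sites lay just outside.

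The member genes were spread over the genome, with 113 on chromosomes and 43 on unplaced scaffolds of the v9.1 assembly, and 74 on the plus and 82 on the minus strand. A member gene had a median of 12 listed sites, with a range of 10 to 18. The 10 genes with the most member sites had 16 or 17. With 17 each they were cnnm2, which acts in magnesium transport across membranes, lrp1, a large endocytic receptor, pcnx, a multi-pass membrane protein, bcl9, a coactivator of beta-catenin in Wnt signalling, and sbf2, a pseudophosphatase of the myotubularin family. With 16 each they were pik3c2a, a class II phosphoinositide kinase, enah, an actin regulator, pde3b, a cyclic nucleotide phosphodiesterase, myo10.2, an unconventional myosin, and jmjd3, a demethylase of histone H3 that is now called kdm6b. arhgap33 also had 16 member sites and was left out of the 10 by the order of gene identifiers. Only 3 pairs of member genes had sites within 50000 nt of each other. These were sec16a and notch1 on the same strand of Chr02, 14352 nt apart, znf687 and myo1e.2 on scaffold_532, 12825 nt apart, and nup98 and znf347 on scaffold_405, 49004 nt apart.

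Of 9 lists of genes by function, written with earlier results of these data known, the list of chromatin regulators held the most member genes. Of its 59 genes with a listed site, 15 (25.4%) were member genes, among them arid1a, crebbp, ehmt1, ep300, hcfc1, hdac7, ino80, jmjd3, kmt2a, kmt2c, nsd1, setd2, smarca4 and trrap. These include histone acetyltransferases (crebbp, ep300), histone methyltransferases (ehmt1, kmt2a, kmt2c, nsd1, setd2) and subunits of remodelling complexes (arid1a, ino80, smarca4). A further 3 genes of that list were among those left out by the rule, and whsc1, an older name of the listed nsd2, was a member gene that the matching by name did not count. The background over all genes of the 100 ng list was 2.42%. The signalling list holds receptors, kinases and other signalling genes, such as apc and tsc2. Of its 41 genes with a listed site, 7 were member genes (apc, ephb4, lrp1, notch1, trio, tsc2 and wnk1). Of 27 genes of the cytoskeleton and its motors, 4 were member genes (akap9, dync1h1, myh10 and pcnt). The lists are short and do not hold every gene of a function. For example, the member genes myo10.2, myo1e.2 and enah were not counted for the cytoskeleton. Of genes of the extracellular matrix and adhesion, 4 of 29 were member genes (fn1, itga5, ptk7 and scrib). The ubiquitin system had 3 of 30 (among them herc1 and mycbp2), RNA processing and translation 3 of 37 (edc4, eif4g3 and srrm2), mitosis and cell cycle 3 of 57 (ckap5, espl1 and numa1), and DNA replication and repair 2 of 44 (rif1 and top3a). Of the list of maternal and germ-line messages, 25 of 40 genes had a listed site, and 0 were member genes. In all, 41 member genes (26.3%) were in a list. The same share over all genes of the 100 ng list was not counted, so this number is a description only. Lists of this kind differ in the length and abundance of their messages, and gene length was not analysed here.

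Among member genes with shared symbols, a grouping made after the names were seen, 4 of 13 nup genes were member genes (nup98, nup205, nup210 and nup214, subunits of the nuclear pore). So were 3 of 20 med genes (med12, med13 and med13l, of the Mediator kinase module), 5 of 30 wdr genes, 4 of 24 arhgap and arhgef genes, and 3 of 59 znf genes. These counts describe the list and carry no test.

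The sites of a member gene were spread over long genomic stretches. The first and last listed site were a median of 26717.5 nt apart, with a range of 1174 to 363338 nt over the member genes, introns included. Consecutive sites of the same gene were a median of 869 nt apart, with quartiles of 148.5 and 3006 nt. Of the 1735 consecutive steps, 830 (47.8%) were longer than 1000 nt, and 63 (3.63%) were of 10 nt or less. Seen from each member site, the nearest listed site of the gene was a median of 295.5 nt away (95% order-statistic interval 258 to 346 nt). In genes with 5 to 9 sites this distance was 419 nt and in genes with 2 to 4 sites 1662 nt, an order that the number of sites alone can give. No 3 consecutive member sites were all linked by steps of 10 nt or less.

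**Figure D1:**
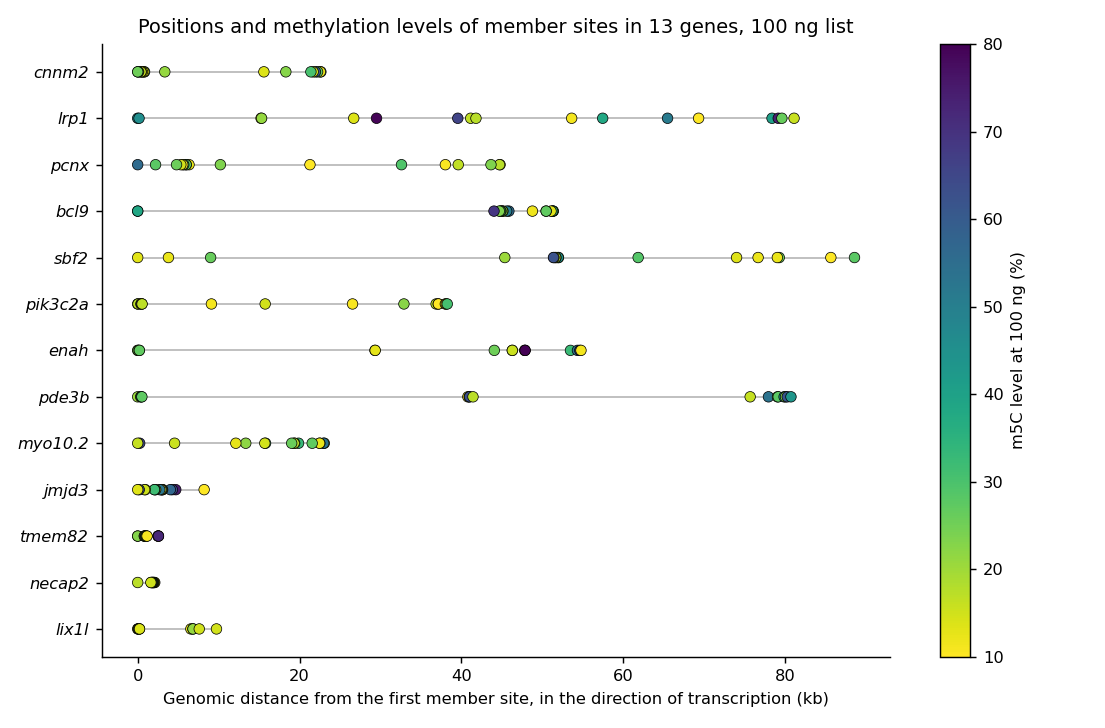
Positions of member sites along 13 genes, as genomic distance in kb from the first member site in the direction of transcription (introns included), each point a site coloured by its m5C level at 100 ng in percent. The upper 10 genes have the most member sites and the lower 3 (tmem82, necap2 and lix1l) the shortest steps; sites form clusters separated by long gaps, as in bcl9 and enah, or lie apart, as in lrp1, and light and dark points sit side by side.

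The genes with the longest steps were trio, a guanine nucleotide exchange factor, with a median step of 11014 nt, wdfy3, which acts in selective autophagy, with 8692 nt, and mdn1, an ATPase of ribosome biogenesis, with 7941 nt. Those with the shortest were tmem82, a membrane protein, with 38.5 nt, necap2, an adaptor-associated protein of clathrin coats, with 50 nt, and lix1l, with 68 nt. Within 1000 nt, 40 genes had a maximum of 4 sites and 15 genes a maximum of 5. The largest number in any such window was 10, in necap2, followed by 8 in cnnm2. Within 100 nt the largest number was 4, in lix1l, soga1 and tmem82, while 108 genes had a maximum of 2.

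The 10 sites of necap2 within 1000 nt lay on scaffold_984, and most were regularly spaced. Read in the direction of transcription from position 50900 on the minus strand, 9 sites followed each other at steps of 47 to 50 nt over 390 nt, ending at position 50510. Their levels at 100 ng, in order, were 15.4%, 15.1%, 30.5%, 33.0%, 29.98%, 18.98%, 25.3%, 13.6% and 16.9%, on 617 to 3627 reads. The 3 highest sites lay next to each other, and the seventh site was higher than both of its neighbours. In the same order the levels were 10.98%, 15.2%, 27.9%, 37.3%, 18.8%, 14.9%, 28.6%, 14.6% and 12.1% at 5 ng. At 10 ng they were 15.6%, 13.1%, 29.7%, 32.7%, 20.5%, 19.9%, 31.7%, 13.98% and 17.4%, and at 20 ng 18.1%, 11.9%, 25.8%, 32.7%, 26.6%, 17.2%, 23.4%, 15.8% and 17.8%. The fourth site was the highest in every list and the order of the others shifted. All 11 member sites of necap2 were in every lower list. Of the 1102 genes of the 100 ng list with enough sites for 4 consecutive steps, 1 other, fam177b on Chr05, had such a stretch of steps within 5 nt of each other, with 5 sites at steps of 44 to 45 nt. This search was made after the necap2 positions were seen, and the sequence of the stretch was not analysed here.

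tmem82 on scaffold_6051 had 13 member sites between positions 735 and 3303. Its highest site, at position 3303, had 72.3% at 100 ng and 60.7%, 55.6% and 73.3% at 5, 10 and 20 ng. The next site upstream, 8 nt away at position 3295, had 11.2% at 100 ng and 12.96%, 10.3% and 10.8% in the lower lists. A similar contrast was seen in enah on Chr05, where positions 4771596 and 4771608, 12 nt apart, had 14.3% and 79.8% at 100 ng, and 18.7% and 76.5% at 5 ng. In pik3c2a on scaffold_66, the highest and the lowest member site of the gene were 15 nt apart, with 70.1% at position 579739 and 10.1% at position 579754.

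The nearest listed site was within 10 nt for 6.33% of members. In genes with 5 to 9 sites this share was 7.52%, and in genes with 2 to 4 sites 5.05%. Among such close sites the median distance was 1 nt in each group. Short steps in member genes were mostly single-nucleotide steps. Of the 63 steps of 10 nt or less, 38 joined cytosines next to each other, and both cytosines were members in 30 of these, in 28 genes. The 2 levels of an adjacent pair differed by a median of 15.7 points at 100 ng, and by up to 56.9 points, in neurl4. The first base in the direction of transcription was the higher of the pair in 18 pairs and the second in 12. In 12 pairs the bases were 20 points or more apart, and in 6 pairs 5 points or less.

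**Figure D2:**
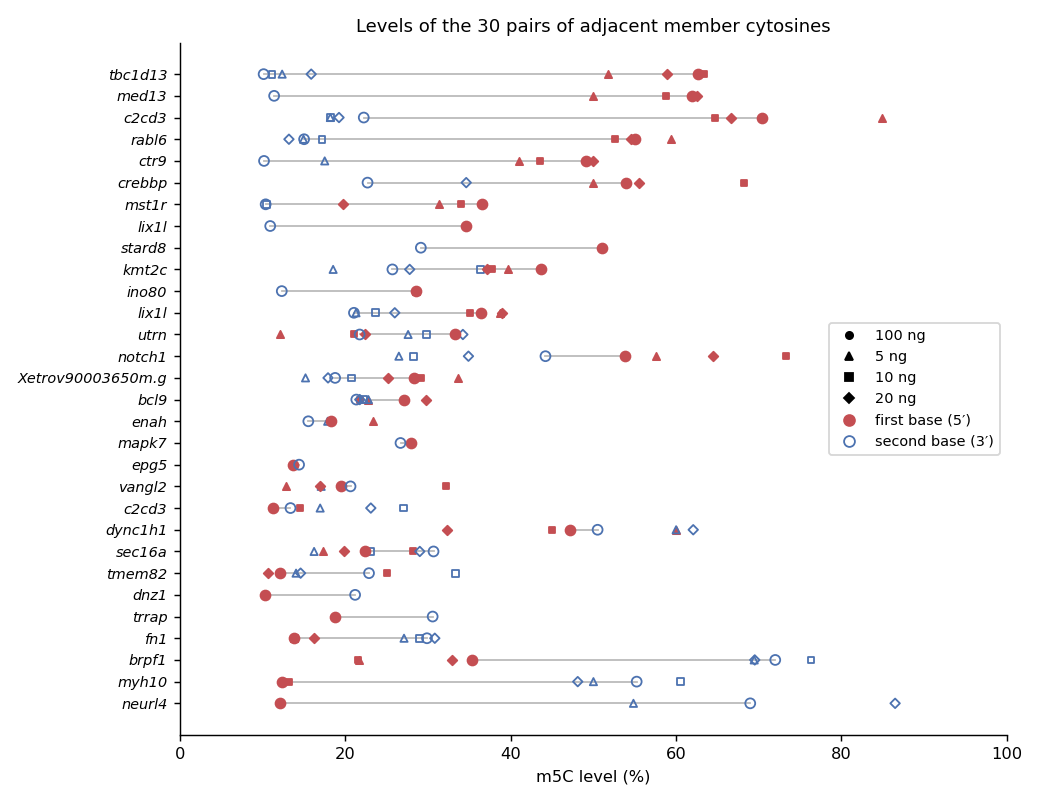
Levels of the 30 pairs of adjacent member cytosines, with the m5C level in percent on the x axis and 1 pair per row, ordered by the difference at 100 ng. Filled red symbols are the first and open blue symbols the second base in the direction of transcription, circles are 100 ng and smaller symbols the lower inputs; in the widest pairs, such as tbc1d13, rabl6 and brpf1, the symbols of the 4 lists stay on their own side.

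The wide differences recurred. In tbc1d13, a TBC domain protein, the first base had 62.7% and the second 10.1% at 100 ng, on 798 and 801 reads, and they had 51.8% and 12.4% at 5 ng, 63.4% and 11.1% at 10 ng and 58.9% and 15.9% at 20 ng. In rabl6, the first base had 54.99% and the second 15.01% at 100 ng, against 59.4% and 14.9%, 52.6% and 17.2%, and 54.5% and 13.2% at 5, 10 and 20 ng. The order was the other way in brpf1, which belongs to a histone acetyltransferase complex, with 35.3% at the first and 71.99% at the second base at 100 ng and 21.6% and 69.4% at 5 ng. It was also the other way in fn1, which encodes fibronectin, with 13.8% at the first and 29.9% at the second base on 1951 and 1952 reads. In bcl9 the first base had 27.0% and the second 21.3% at 100 ng, and at 5 ng 22.7% and 22.8%, so these bases were close in both lists.

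Of the 12 pairs at least 20 points apart, both bases were listed in 5 at 5 ng, 6 at 10 ng and 5 at 20 ng, and the base that was higher at 100 ng was higher in all of these. Over all pairs with both bases listed, the same base was higher in 12 of 16 at 5 ng, 13 of 16 at 10 ng and 14 of 15 at 20 ng. A base under 10% is not listed, so these counts leave out pairs whose lower base fell below that level.

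The difference in level between consecutive sites did not rise steadily with their distance. The absolute difference between consecutive sites had a median of 17.9 points at 1 to 10 nt (63 pairs, interval 11.5 to 27.1), 11.3 points at 11 to 30 nt (92 pairs, 7.44 to 15.7) and 15.5 points at 31 to 100 nt (202 pairs, 11 to 20.1). Above 100 and up to 1000 nt it was 13.3 points (548 pairs, 11.7 to 15.4) and beyond 1000 nt 12.6 points (830 pairs, 10.9 to 14.1). The lists of 5, 10 and 20 ng gave 18.4, 15.9 and 18.3 points at 1 to 10 nt, 10.8, 12.6 and 9.59 points at 11 to 30 nt, and 14.1, 13.8 and 13.1 points beyond 1000 nt. In all 4 lists the median was lower at 11 to 30 nt than beyond 1000 nt, but the interval at 11 to 30 nt held the median beyond 1000 nt. Close sites share reads, and the authors removed reads with many remaining cytosines and mapped to a converted reference, steps that can lower the levels and the number of sites where methylation is dense.

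The level of a member site was low in most cases. At 100 ng the median was 19.2% (interval 18.4 to 20.4%), with quartiles of 13.5 and 32.0%, and 924 of the 1800 sites (51.3%) were under 20%. A level of 40 to 60% was found at 200 sites and one of 60 to 80% at 112. The other sites below 80%, in genes with fewer sites or in the genes left out, had a median of 20.0% (interval 19.8 to 20.4%). In the lists of 5, 10 and 20 ng the listed members had medians of 22.7%, 23.3% and 22.7%, but each list leaves out its own sites under 10%. On the 734 member sites that all 4 lists held with at least 50 reads, the medians were 24.2% at 100 ng (interval 23.0 to 25.7%) and 23.7%, 24.0% and 24.0% at 5, 10 and 20 ng.

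Most of the variation in level was within genes. The gene a site belonged to accounted for 9.70% of the variance of level at 100 ng, where genes with levels all alike would give 8.62% through their number alone, and for 12.2%, 12.4% and 11.9% at 5, 10 and 20 ng, where 12%, 12.4% and 12.2% would arise. The lowest and the highest member site of a gene were a median of 49.5 points apart. The widest ranges between member sites were in nktr, at 69.6 points, lrp1, at 69.1 points, and atrn, at 69.0 points. nktr is a cyclophilin-related protein and atrn a membrane protein known as attractin. The 10% floor and the 80% limit of the rule bound these ranges. With the listed sites that the rule dropped, ehmt1 ran from 13.3% to 93.4% at 100 ng and ppfia1 from 10.7% to 90.3%, which is wider. In nktr on Chr06, the highest site, at position 2626699, had 79.6% at 100 ng (86 of 108 reads) and 86.7%, 85.7% and 73.0% at 5, 10 and 20 ng. Its lowest site, at position 2620235, had 10.1% at 100 ng, 11.6% at 5 ng and 12.2% at 20 ng and was not listed at 10 ng. In atrn on Chr01, position 7522664 had 79.6% at 100 ng and 60%, 70.6% and 73.1% in the lower lists, on 40, 34 and 26 reads. The narrowest range was in nup205, at 5.09 points, with 16.04% as the highest of its 9 member sites, but its other listed site, which the rule dropped, had 82.6%.

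Gene medians ranged from 12.1% in med13 to 43.9% in epn2, an endocytic adaptor. The other low medians were 13.002% in nup205 and 13.1% in ankrd28, an ankyrin repeat protein, and the other high ones 35.7% in myo1e.2, a class I myosin, and 34.3% in arid1a. In med13 on Chr02 the highest member site, at position 87603336, had 61.9% at 100 ng and 50%, 58.8% and 62.5% at 5, 10 and 20 ng, on 62, 34 and 24 reads, and a site at position 87603043, not a member, had 82.6% at 100 ng. In arid1a on Chr02, the site at position 51932288 had 79.2% at 100 ng (912 of 1152 reads, exact Clopper-Pearson interval 76.7 to 81.5%) and 84.9%, 80.2% and 82.9% at 5, 10 and 20 ng. In ankrd28 on Chr06 the highest member site had 29.5% at 100 ng and 32.9%, 37.3% and 26.3% in the lower lists. A site of ankrd28 at position 80299882, not a member, had 82.4% at 100 ng. Spearman's correlation between the medians of the genes at 100 ng and at a lower input was 0.61 at 5 ng (137 genes). It was 0.59 at 10 ng (129 genes) and 0.74 at 20 ng (135 genes). This is a description in which the messages are the same and the coverage differs. The median of a gene at a lower input covers only its members listed there, so the sites differ as well.

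In the 10 genes with the most member sites, the highest member site at 100 ng stayed above the lowest in every lower list that held both, which in pcnx and myo10.2 was none, since their lowest site was not listed at a lower input. Both sites were picked as the extremes at 100 ng, far apart in level, so their order is a description and no test. In cnnm2 on Chr03, position 108976249 had 60.8% at 100 ng (155 of 255 reads) and 63.6%, 66.7% and 51.9% at 5, 10 and 20 ng, on 44, 51 and 52 reads. The lowest site of cnnm2, at position 108997448, had 11.6% at 100 ng and 11.8%, 12.4% and 10.9% in the lower lists, so high and low did not overlap. In lrp1 on Chr02, position 136267115 had 79.4% at 100 ng and 78.3%, 74.6% and 75.9% at 5, 10 and 20 ng. Its lowest site, position 136306904, had 10.3% at 100 ng and 14.6% at 10 ng and was absent from the other lists. In pcnx on Chr08, the highest site (position 86710358) had 55.8% at 100 ng and 59.7%, 54.8% and 55.8% in the lower lists. In bcl9 on Chr02, position 4426896 had 69.1% at 100 ng and 67.3%, 70.8% and 66.1% in the lower lists, while the lowest site had 11.7% at 100 ng and was listed only at 5 ng, at 10.3%.

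In sbf2 on Chr04, position 594143 had 62.3% at 100 ng and 65.2%, 45.6% and 59.6% at 5, 10 and 20 ng, and the value at 10 ng (36 of 79 reads) did not pass the test described below. In pik3c2a, the highest site had 68.0%, 72.6% and 71.9% in the lower lists. In enah, the highest site (position 4771608) had 76.5%, 79.1% and 75.7% in the lower lists, and the lowest, at position 4778508, had 11.2% at 100 ng on 5752 reads, 12.3% at 10 ng and 11.7% at 20 ng. That site was not listed at 5 ng. In myo10.2 on scaffold_261, position 36439 had 65.2% at 100 ng and 63.9%, 68.8% and 68.3% in the lower lists. Coverage was low in pde3b on scaffold_199, where position 176307 had 62.8% at 100 ng and 61.5%, 72% and 80% on 26, 25 and 20 reads. It was low as well in jmjd3 on scaffold_561, where position 49759 had 74.6% at 100 ng, on 67 reads, and 54.5% at 5 ng and 60% at 20 ng, on 33 and 25 reads.

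jmjd3 shows the pattern along a compact gene, with 16 member sites over 8209 nt. In the direction of transcription its levels at 100 ng were 13.5%, 63.6%, 15.3%, 14.3%, 31.6%, 49.6%, 12.3%, 52.1%, 11.002%, 47.4%, 12.3%, 20.97%, 56.96%, 63.6%, 74.6% and 10.1%. High and low sites were mixed along the gene, and 7 sites were above 45%, the last 3 of them in a row. Of those 7, the 6 with over 400 reads were listed at every input, with 69.6%, 47.9%, 49.1%, 44.5%, 53.1% and 69.9% at 5 ng. ehmt1, which methylates histone H3, was the deepest of these examples, with 13 member sites on 620 to 4143 reads at 100 ng. Its sites at positions 110977 (93.4%) and 116129 (92.1%) were not members. The levels of its member sites at 100 ng were 26.7%, 20.8%, 37.2%, 18.3%, 37.7%, 32.3%, 14.7%, 14.2%, 67.3%, 13.3%, 33.5%, 28.9% and 60.2%. At 5 ng, in the same order, they were 29.9%, 18.6%, 37.9%, 20.3%, 40.8%, 33.2%, 16.5%, 14.8%, 67.8%, 14.4%, 28.3%, 25.8% and 59.5%. The 2 profiles differed by less than 6 points at each member site of ehmt1.

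The next question was how many member sites were found again at a lower input. Of the 1800 member sites, the 5 ng list held 1253, or 69.6% (67.4 to 71.7% by the exact Clopper-Pearson interval). The 10 ng list held 1227 (68.2%, 66.0 to 70.3%) and the 20 ng list 1260 (70%, 67.8 to 72.1%). The background over all sites of the 100 ng list below 80% was 59.5%, 56.2% and 60.7% in the same order. All 3 lower lists held 972 member sites (54.0%, 51.7 to 56.3%), where the background was 45.3%. At least 1 held 1503 (83.5%), and 297 member sites were in the 100 ng list alone.

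Coverage moved with these shares. Member sites had a median of 271.5 reads at 100 ng and other sites below 80% one of 174 reads. Member sites in 0, 1, 2 and 3 lower lists had medians of 69, 152.5, 232 and 501.5 reads. Within a class of coverage, members and other sites had overlapping intervals for the share in all 3 lists. With 20 to 50 reads the share in all 3 lists was 2.17% of 92 members and 0.724% of 1795 other sites. With 200 to 500 reads it was 65.6% (61.1 to 69.9%) of members and 68.5% (66.9 to 70.1%) of other sites, and with 1000 reads or more 86.9% (82.7 to 90.4%) and 85.8% (84.2 to 87.2%). The part of coverage in the higher share of member sites was not tested beyond these classes.

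**Figure D3:**
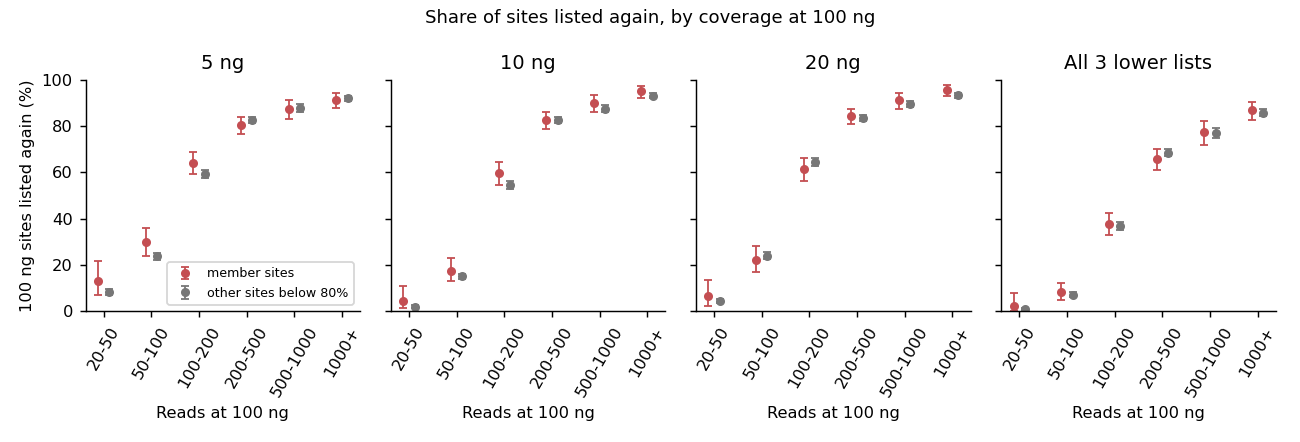
Share of sites of the 100 ng list found again (y axis, percent) by reads at 100 ng (x axis), for the lists of 5, 10 and 20 ng and for all 3 together, with member sites in red, other sites below 80% in grey and bars for 95% exact Clopper-Pearson intervals. Both rise together, from under 15% at 20 to 50 reads to over 85% at 1000 reads or more.

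The level of a site moved with its recurrence as well. Of the 274 members with a level of 10 to 12%, 13.9% were in all 3 lower lists (10.0 to 18.5%), and of the 336 with 12 to 15%, 32.7% were (27.7 to 38.0%). Of the other sites in these level classes, which had lower coverage, 12.997% and 28.3% were. All 297 members with 500 or more reads and at least 20% methylation were in all 3. This count was not made for the other sites, so it cannot show a difference between them and members. With 500 to 1000 reads and no minimum level, 77.2% of members and 77.0% of other sites were in all 3. A site whose level fell under the floor of 10% in a list is not in it.

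Recurrence by gene moved with the reads of the gene. In 6 genes every member site was in all 3 lower lists, namely ehmt1, ext1 (which builds heparan sulfate), wdr26, nup98, necap2 and atxn2l, and their median coverage was 1241.5 to 2881 reads a site. In 7 genes no member site was, namely LOC100492758, arhgap23, ambra1, numa1, eif4g3, tanc1 and arhgef11, with medians of 58 to 105.5 reads. In numa1, which organises spindle poles, 0 of 9 member sites were listed at 5 ng and 2 each at 10 and 20 ng. In arhgap23, 0 of 13 member sites were listed at 5 ng and at 20 ng and 3 at 10 ng.

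The measure that chose the genes, 10 or more listed sites, was then applied to the lower lists. Among the member genes, 87 reached it in the 5 ng list (55.8%, 47.6 to 63.7%), 86 in the 10 ng list (55.1%, 47.0 to 63.1%) and 85 in the 20 ng list (54.5%, 46.3 to 62.5%), with exact intervals. The background over the 6458 genes of the 100 ng list was 1.61%, 1.61% and 1.64%. That background holds the member genes themselves, and nearly all its other genes had under 10 sites at 100 ng. A gap between these shares thus follows from the choice of genes. All 3 lower lists held 10 or more sites in 64 member genes (41.0%). No share over all genes was counted for all 3 lists or for the following classes of coverage. Among the 42 genes with a median of under 150 reads a site, 8, 4 and 5 reached 10 sites at 5, 10 and 20 ng, while 39, 42 and 38 of the 50 genes with a median of 500 reads or more did.

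**Figure D4:**
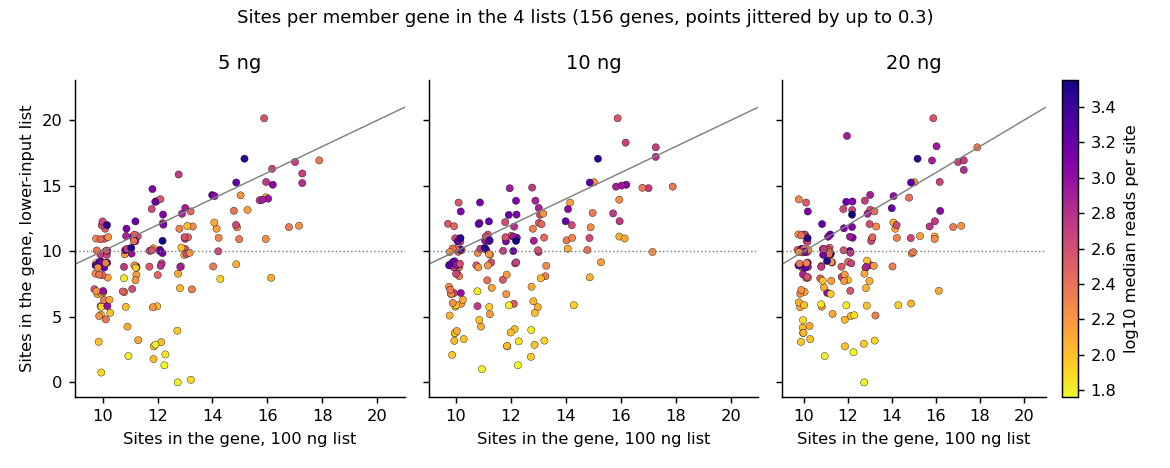
Number of listed sites in each member gene at 100 ng (x axis) and at 5, 10 and 20 ng (y axis), points jittered by up to 0.3 and coloured by the log10 of the median reads per site at 100 ng. The solid line marks equal numbers and the dotted line 10 sites; most points lie under the solid line, and the pale points of low coverage lie lowest.

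A lower list held more sites than the 100 ng list in 20 member genes at 5 ng, 23 at 10 ng and 23 at 20 ng. It held fewer in 114, 113 and 110. The genes were chosen for a high number at 100 ng, in the list with the most sites. A majority with fewer sites can follow from that choice and is no test. No share over all genes was counted for these numbers. More sites at every lower input were listed in 8 member genes. They included sec16a, which acts in export from the endoplasmic reticulum, with 16 sites at 100 ng and 20 at each lower input, wnk1, a kinase, with 12 sites at 100 ng and 14, 15 and 19 at 5, 10 and 20 ng, and ehmt1, with 15 sites at 100 ng and 17 at each lower input. Sites of member genes that were not in the 100 ng list numbered 178, 194 and 178 in the lists of 5, 10 and 20 ng, or 11.8%, 12.99% and 11.7% of the sites these lists held in member genes. Over all genes these shares were 15.2%, 14.6% and 13.8%. Their median levels were 12.2%, 12.4% and 12.2%. Of 414 such sites in all, 303 were in 1 lower list alone and 25 were in all 3. Of those 25, 18 had a mean level under 15%, and the highest mean was 25.7%, in znf347. The highest single value was in kmt2a at 5 ng, 83.3% on 24 reads at position 85049749 of Chr07, and no other list held that site.

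Levels of member sites were compared with 100 ng by Fisher's exact test (two-sided, 1 test for each site), on sites with at least 50 reads in both lists and with Benjamini-Hochberg adjustment over all such sites of the pair. Member sites differed at 5 ng in 3 of 945 cases, at 10 ng in 0 of 902 and at 20 ng in 0 of 962. The background over all sites tested was 0.278% (22 of 7923) at 5 ng, 0.0406% (3 of 7385) at 10 ng and 0.15% (12 of 8018) at 20 ng. Without adjustment, 64, 90 and 71 member sites had a Fisher's exact p under 0.05, or 6.77%, 9.98% and 7.38%, beside 8.75%, 8.61% and 7.40% of all sites. A normal test with the binomial variance multiplied by 1.42 called 0 member sites at each input. The factor was the excess found between the lower lists at sites of 30% or more with at least 50 reads. Most member sites had lower levels, for which no factor was estimated.

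**Figure D5:**
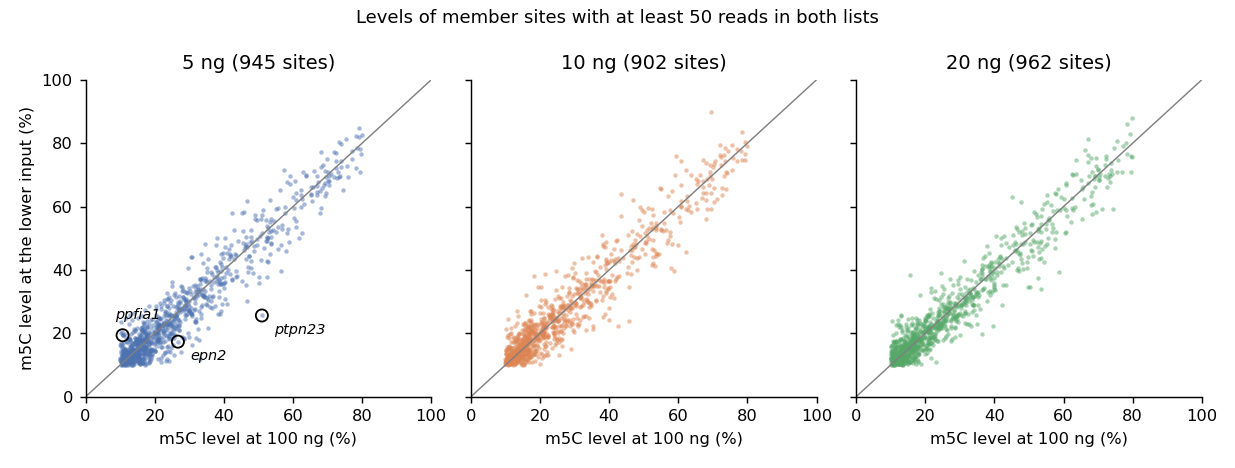
m5C level in percent of member sites at 100 ng (x axis) and at 5, 10 and 20 ng (y axis), for sites with at least 50 reads in both lists, with the line of equal levels. Points follow the line in all panels; circles mark the 3 sites that passed Fisher's exact test, in ptpn23, ppfia1 and epn2 at 5 ng.

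The 3 sites were in ptpn23, a phosphatase-like protein of endosomal sorting, ppfia1, a scaffold protein of the liprin family, and epn2. In ptpn23 on scaffold_394, position 41196 had 51.0% at 100 ng (127 of 249 reads), 50.8% at 10 ng, 45.9% at 20 ng and 25.6% at 5 ng (20 of 78 reads), with an adjusted p of 0.0372 by Fisher's exact test. The 5 ng list alone stood apart. In ppfia1 on Chr04, position 6493769 had 10.7% at 100 ng (171 of 1595 reads), 12.97% at 10 ng, 15.03% at 20 ng and 19.4% at 5 ng (92 of 474 reads), with an adjusted exact p of 0.0032. In epn2 on Chr07, position 96504958 had 26.7% at 100 ng (489 of 1830 reads) and 17.4%, 20.1% and 19.9% at 5, 10 and 20 ng, with adjusted exact p-values of 0.0372, 0.312 and 0.356. With the wider variance the adjusted p-values of the normal test at 5 ng were 0.47 for epn2, 0.0505 for ppfia1 and 0.429 for ptpn23. The epn2 and ppfia1 sites lay below the levels at which the variance factor was estimated. With the reads of the 3 lower lists summed, an alternative chosen after the data were seen, 2 of 970 member sites passed the exact test, those of epn2 (26.7% against 19.1%) and ppfia1 (10.7% against 15.9%), where the background over all sites was 0.327% (28 of 8554).

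Over all member sites tested, the median difference from 100 ng was -0.145 points for the 5 ng list (interval -0.390 to 0.133), 0.327 points for the 10 ng list (0.0255 to 0.598) and 0.0106 points for the 20 ng list (-0.307 to 0.203). Within 10 points of 100 ng were 94.4%, 94.3% and 96.0% of the member sites tested. Only sites listed in both lists could be tested, and no list holds a level under 10%. A member site under 20% at 100 ng could thus not fall by more than 10 points and still be counted. The differences, the correlations and the Fisher calls leave out sites that fell under that floor. Pearson's r across sites was 0.959, 0.956 and 0.965 and Spearman's correlation 0.894, 0.910 and 0.914, as a description over sites of the same messages. Within a gene, the rank of the sites at 100 ng and by their mean at the lower inputs had a median Spearman's correlation of 0.9503 over the 94 genes with enough sites. On the 734 sites with at least 50 reads in all 4 lists, the highest and the lowest of the 4 levels were a median of 6.09 points apart, with quartiles of 3.90 and 9.54 points. For 285 sites this range was within 5 points, and for 41 it was over 15 points.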

How the data were processed

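Polyadenylated RNA of Xenopus tropicalis stage 0 embryos was measured in 5 libraries. As the study's methods state, reads were trimmed with cutadapt and Trimmomatic and aligned by HISAT2 to the Xenbase v9.1 genome after in silico conversion, and Bowtie2 then aligned those left over to converted transcripts. The authors filtered out reads with many remaining cytosines, removed conversion-resistant genes and called sites by a binomial test. The submitters' processing notes name HISAT2 2.10 and bcl2fastq 2.17. For each site the authors deposited the coverage as a read count (C plus T). The deposited m5C level is a fraction of these reads and is printed as a percent. The deposited p-value of the site call was not used in any test. Positions are printed as in the files, which do not say whether they count from 0 or 1. No genome of this build was used, so motifs, exons and UTRs were not analysed here. The reference gene table, of another assembly, was used for names only and held 152 of the 156 member symbols.

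The members and lists were chosen with earlier results of these data known. Unconverted reads were recovered as level times coverage. A site of 1 list was matched to another list where chromosome, position and strand were equal. Spacing is genomic distance between listed sites of a gene. Shares have exact Clopper-Pearson intervals and medians order-statistic intervals, both at 95%. The reads carry no molecular identifiers, so intervals cover counting error or the choice of sites only. Fisher's exact test was run on sites with at least 50 reads in both lists, with a threshold of 0.05 after Benjamini-Hochberg adjustment over all sites of a pair. It was also run on simulated reads, which held binomial variance only and shifts only at sites of middle level. That run does not check the test at low levels or with excess variance between lists. Analyses used Python 3.11.15, pandas 2.3.3, NumPy 2.4.6 and SciPy 1.17.1.

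Named genes were the 10 with the most member sites, the 3 highest and 3 lowest by median level, by median step and by share found in all 3 lower lists, the 3 with the widest range of levels, those with a site that passed the test, and member genes of the functional lists (some are not reported here), with ties broken by gene identifier. Named sites were the highest and lowest of the 10 genes with the most and those that passed the test. The sites of nktr, atrn, med13, arid1a, ankrd28, nup205 and tmem82, and the genes of adjacent and regularly spaced sites, of the symbol groups and of sites new at a lower input were named after their values were seen. Alternatives were other minimums of sites, reads and level.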

Additional observations from a re-analysis of the deposited data

How the results depend on the processing

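Of 90 alternative values, 61 stayed within the interval of the reported value or within 1.5 times of a count, and none of the values whose interval left out 0 changed sign. The share of member sites listed at 5, 10 and 20 ng and in all 3 was 83.9%, 80.4%, 82.1% and 74.3% for sites of 20% or more at 100 ng, and 72.7%, 71.6%, 73.4% and 56.8% with at least 50 reads there. With genes of 8 or more sites it was 67.0% at 5 ng, 64.1% at 10 ng and 51.3% in all 3. Sites called at 5 ng fell from 3 to 0 with the variance factor and to 1 with genes of 12 or more sites. From 0, calls rose to 1 at 10 ng with at least 100 reads, and to 1 at 20 ng with genes of 8 or more sites. The median difference at 10 ng was 0.689 points with at least 20 reads, but 0.160 (-0.147 to 0.424) with at least 100 reads, 0.158 (-0.0570 to 0.361) with genes of 8 or more sites and 0.325 (-0.104 to 0.739) with genes of 12 or more. The median differences at 5 and 20 ng, whose intervals held 0, took either sign (-0.235 to 0.0573 and -0.137 to 0.119 points). Read-weighted mean levels were 25.2% at 100 ng and 27.0%, 26.4% and 26.3% at 5, 10 and 20 ng. Sites in all 4 lists with at least 50 reads had medians of 24.2% at 100 ng, 23.7% at 5 ng and 24.0% at 20 ng, and genes with 12 or more sites had one of 20.5% at 100 ng. The nearest site was 201 nt away with the sites of all 4 lists together and 815.5 nt away among sites of at least 20%. Counting sites with at least 50 reads only, 53, 49 and 48 member genes had 10 or more at 5, 10 and 20 ng. No analysis paired by replicate was possible because only 1 list was given for each input. No library could be left out because each list stands for 1 library or for 2 combined. A site that a list does not hold may have had too few reads, too few unconverted reads or a level under 10%. It may also have failed another filter of the authors' site calling, and the lists do not tell these apart.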

Other observations

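The highest values among sites that only a lower list held were on few reads. Beside kmt2a, spen had 72.7% at 5 ng on 22 reads and tbc1d14 43.9% at 5 ng on 41 reads, and neither site was in the list of 100 ng. Among member sites, the widest range over the 4 lists at sites with at least 50 reads in each was 34.1 points, in lrp1, with 45.9% at 100 ng and 58.1%, 24.0% and 46.1% at 5, 10 and 20 ng.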
